A study of Homo sapiens with 12 samples.

Results

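The integrin subunits described here are 10 genes: ITGAL, ITGAM, ITGAX and ITGB2 of the leukocyte β2 integrins, ITGA4, ITGB1 and ITGB7 of the α4 and β1 or β7 integrins, and ITGAV, ITGB3 and ITGB5 of the αv integrins. They were picked by gene symbol. They accounted for 127 of the 197782 transcripts in the table of U937 cells, of which 60 had at least 1 read (68785 in the whole table). U937 is a human myelomonocytic leukemia cell line. RNA sequencing compared 4 groups of 3 libraries: untreated cells, decitabine (DAC, 200 nM), all-trans retinoic acid (ATRA, 1 µM), and both agents together (DAC+ATRA). DAC was renewed daily over 3 days, and the study's methods place ATRA with the last DAC dose, so that ATRA acted for a shorter time than DAC. Libraries are numbered as in the table, 1 to 3 untreated, 4 to 6 DAC, 7 to 9 ATRA and 10 to 12 DAC+ATRA. All groups shared U937 as the single line, 20% fetal calf serum and GM-CSF at 5 ng/ml as given in the labels. The study's methods give a lower share of serum and do not mention GM-CSF. They describe vehicle-treated controls, whereas the labels name the reference group untreated. The labels put untreated cells at 96 h and the treated groups at 72 h, whereas the study's methods describe harvest at a common time, so that time and treatment cannot be told apart as far as the labels go. The libraries of a group are described as technical triplicates, so p-values measure only the spread between these libraries. Expression was measured in bulk, where fewer cells of a kind and less RNA per cell cannot be told apart.

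Integrins are cell surface receptors made of 1 α and 1 β chain that bind matrix proteins or counter-receptors on other cells. ITGB2 (CD18) is the shared β chain of ITGAL (CD11a, LFA-1), ITGAM (CD11b, Mac-1) and ITGAX (CD11c). CD11b and CD11c are widely used as surface markers of maturing myeloid cells. ITGA4 (CD49d) pairs with ITGB1 or ITGB7 and binds VCAM1, fibronectin or MADCAM1, whereas ITGAV pairs with ITGB3 or ITGB5 among other chains and binds vitronectin and related ligands. DAC is an inhibitor of DNA methyltransferases, and ATRA activates retinoic acid receptors and drives granulocytic maturation in some myeloid leukemias.

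The unit was the transcript, and the values were reads per transcript divided by a size factor of each library (normalised read counts). Reads that fall on exons shared by several annotated transcripts are taken here to be mostly lost, although the counting mode is not given. Each value is therefore read as resting on the bases that no other transcript of the annotation shares on the same strand, called countable bases. These were computed with GENCODE 44, which may differ from the annotation used for counting, so that the numbers of countable bases and the values per kilobase are approximate. These bases differed widely between the members. The full-length ITGAM transcript had 2916 countable bases of 4719 (61.8%), ITGA4 4082 of 6781 (60.2%) and ITGB3 3631 of 5941 (61.1%). ITGB5 had 1435 of 4440 (32.3%) and ITGAL 348 of 5129 (6.79%). For the canonical transcripts of ITGB1 (0 of 3735), ITGB7 (0 of 2806), ITGAV (28 of 7039) and ITGAX (56 of 4663) almost nothing could be counted, and the canonical ITGB2 transcript was not used here. Accordingly, ITGAX and ITGB2 could only be followed through shorter transcripts, whose countable bases lie in introns of the canonical form. ITGAV was left with 5 reads over the 12 libraries, ITGB7 with 69 and ITGB1 with 97. Low values of these 3 genes can therefore not be read as low expression.

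**Figure D1:**
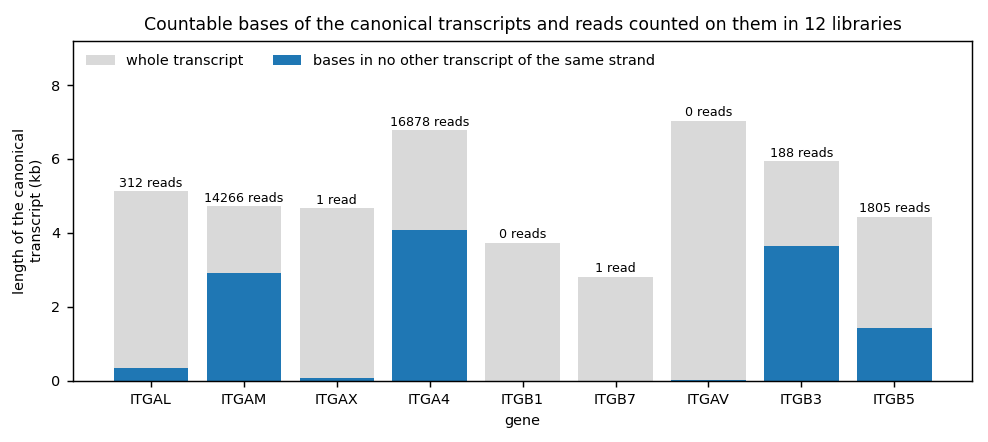
Length of the canonical transcript of 9 members in kilobases (grey bars), the part of it that is countable (blue) and, above each bar, its reads over the 12 libraries. Members with almost no countable bases (ITGB1, ITGB7, ITGAV, ITGAX) carried 0 or 1 read on the canonical transcript, while ITGAM and ITGA4 carried 14266 and 16878.

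The libraries held between 8042435 and 10683593 reads (median 9874622), with 36.3 to 42.5% of them on mitochondrial genes, and 3 reads corresponded to 2.50 to 3.71 normalised reads. Of 8 myelomonocytic markers, 7 had a mean of at least 10 normalised reads in every group, and PTPRC was at 0 in each library. The countable bases of PTPRC were not computed, so its 0 cannot be read as absence of expression. The sum over these markers ran from 61893 to 69084 in untreated cells and from 33615 to 36180 with DAC+ATRA, led by MPO with means of 52578 and 15054. Some markers of other lineages moved with DAC as well. The summed T cell markers ran from 2.8 to 10.2 in untreated cells and from 299 to 392 with DAC, the megakaryocyte markers from 3.6 to 7.4 and from 247.5 to 376, and the stromal markers from 25.5 to 47.1 and from 478 to 506. CD2 led the T cell list, whereas CD3D, CD3E and CD3G had means of 0 to 7.4. The epithelial markers went from at most 0.9 to between 8.6 and 25.9 with DAC, the B cell markers from between 485 and 557 to between 1654 and 1781 with DAC+ATRA, and the erythroid markers stayed between 10.1 and 30.5 in all libraries. Their part in the results of the members was not tested.

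Testing used limma on log2(normalised read count + 1) over 9016 protein-coding transcripts with Benjamini-Hochberg adjustment, and a transcript was called at an adjusted p below 0.01. Of the members, 9 protein-coding transcripts of 7 genes passed the filter on low counts. ITGAL, ITGAX, ITGB3, ITGB5 and a short ITGB2 transcript passed through the treated groups only, so the following counts are a description. Their fitted changes against untreated cells rest on low untreated counts and on the pseudocount, and the reads of both groups are given where these are fewest. In a fit without the filter, the leading transcripts of ITGAL, ITGAX, ITGB3 and ITGB5 had the same calls against untreated cells. The values and fold changes of each transcript are unchanged in that fit, so it gives no separate support for these calls. With DAC, 6 of the 9 rose and 0 fell, where 30.6% of all tested transcripts rose and 8.70% fell. With ATRA, 4 rose and 0 fell against 6.47% and 2.67% of all. With DAC+ATRA, 6 rose and 2 fell, against 32.6% and 14.2%. Over transcripts of any biotype, 17 of the members passed, of which 10 rose and 0 fell with DAC (22.2% and 11.3% of all 19373), 9 and 0 with ATRA (5.11% and 1.87%) and 11 and 2 with both (25.5% and 16.1%). In this set, ITGAM ENST00000569746 and ENST00000561838 and ITGB5 ENST00000460797 also passed through the treated groups only. The median log2 fold change of the 9 was 2.17 with DAC (0.22 over all tested transcripts), 0.40 with ATRA (0.00) and 3.66 with DAC+ATRA (0.20). The DAC median of all transcripts depends on the scaling and was 0.06 in the limma fit with size factors from protein-coding transcripts, so that changes are best read relative to it. With those size factors, the share of all calls that were higher went from 77.9% to 62.7% with DAC and from 74.5% to 62.8% for the combination against ATRA. With scaling by library size, it went from 70.8% to 54.8% with ATRA and from 69.7% to 58.6% with both. ITGAM, ITGAL, ITGAX and ITGB5 rose with either agent, ITGB3 rose with DAC but was not called with ATRA, and both ITGA4 transcripts fell with the combination.

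**Figure D2:**
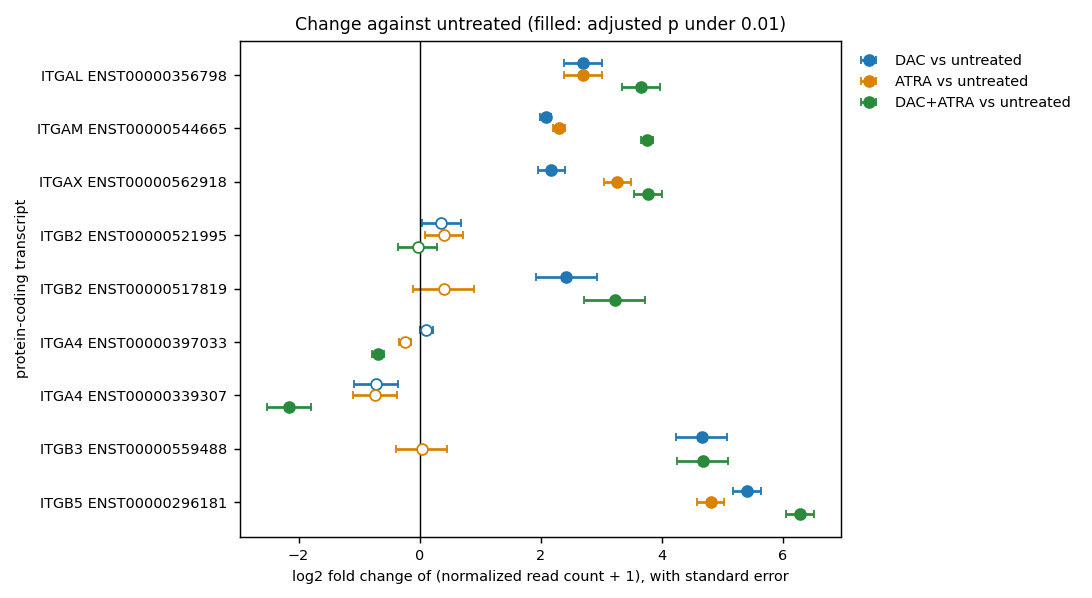
Log2 fold change (± SE) of the protein-coding member transcripts in each comparison, from the limma fit; filled points passed an adjusted p of 0.01. ITGAM, ITGAL, ITGAX and ITGB5 lie to the right of 0 in all 3 comparisons with untreated cells, ITGB3 in those with DAC, and ITGA4 lies left of 0 with the combination.

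**Figure D3:**
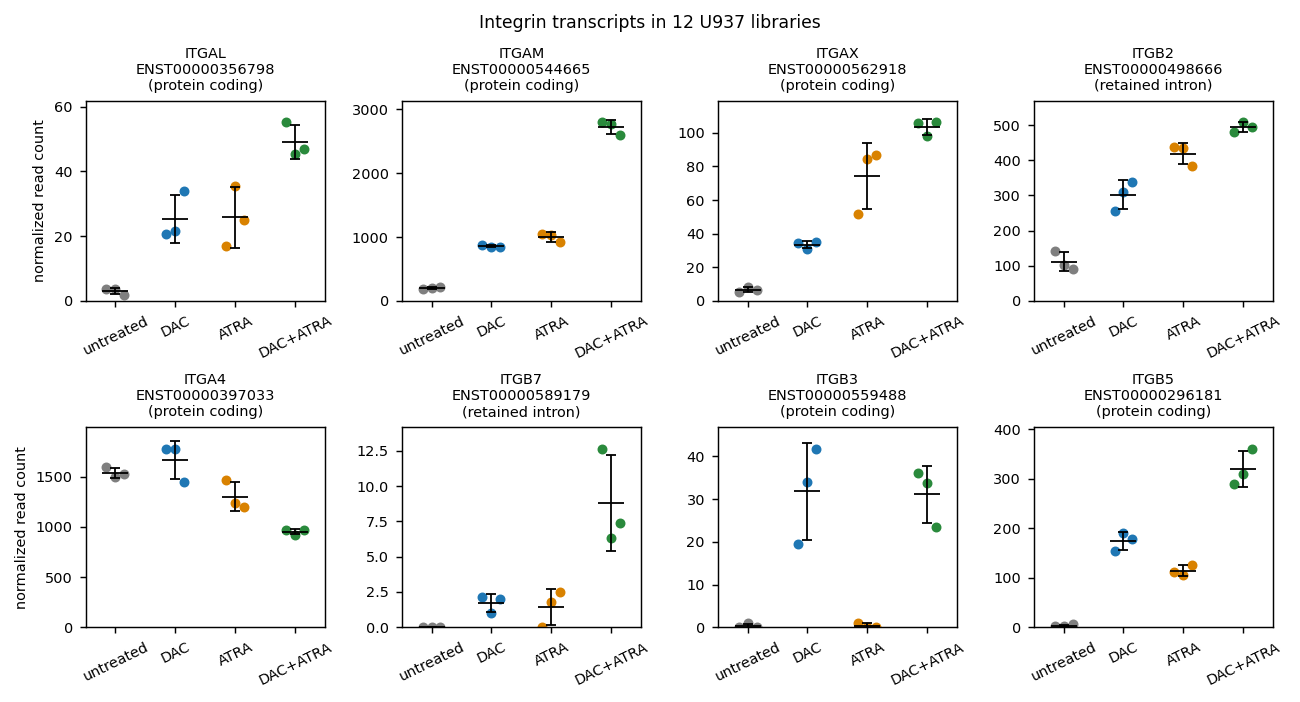
Normalised read count (linear axes from 0) of 8 member transcripts by treatment group, with 1 point per library, the mean as a line and the SD as bars (n = 3). The 3 libraries of a group lie close together for ITGAM, from 189 to 217 in untreated cells and from 2599 to 2799 with DAC+ATRA.

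Among the β2 integrins, ITGAM is the α chain of Mac-1, the complement receptor of neutrophils and monocytes. Its transcript ENST00000544665 (hg38 chr16:31259975-31332877, plus strand, 30 exons) carried 14266 of the 14624 ITGAM reads. The normalised read count was 189, 200.3 and 217 in the untreated libraries and 874, 843 and 852 with DAC. ATRA gave 1054, 1036 and 917, and DAC+ATRA gave 2799, 2778 and 2599. No group overlapped another, and all treated libraries lay above the untreated ones. The log2 fold change was 2.08 ± 0.10 (SE, n = 3 per group; limma adjusted p = 3.51e-13) with DAC, 2.30 (3.5e-13) with ATRA and 3.75 (2.08e-17) with both. The combination exceeded DAC alone by 1.67 (1e-10) and ATRA alone by 1.44 (1.31e-10). A second, retained-intron form (ENST00000569746) stood at 0.923 to 4.55 in untreated cells and at 39.5 to 48.4 with the combination (3.85, limma adjusted p = 3.73e-09 over 19373 transcripts of any biotype). It passed the filter through the treated groups only, so that this value is limited. In reads, 8 in the untreated group compared with 127, a ratio of 18.1 (95% counting interval 8.92 to 42.9).

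ITGAL, the α chain of LFA-1, which serves leukocyte adhesion to ICAM proteins, was scarce in untreated cells. Its transcript ENST00000356798 (hg38 chr16:30472742-30523185, plus strand, 31 exons) had 3.68, 3.64 and 1.85 normalised reads there. The values were 20.5, 21.4 and 33.9 with DAC, 16.9, 35.5 and 25.0 with ATRA, and 55.1, 45.3 and 47.0 with DAC+ATRA. DAC and ATRA libraries overlapped each other, whereas the combination lay above both. In reads, 10 in the untreated group compared with 75, 85 and 142, which gives ratios of 8.30 (95% counting interval 4.27 to 18.0), 8.56 (4.43 to 18.5) and 16.2 (8.56 to 34.5). The log2 fold change was 2.70 ± 0.31 (limma adjusted p = 3.12e-07) with DAC, 2.70 (1.53e-06) with ATRA and 3.66 (2.57e-09) with both. The excess of the combination over DAC (0.96, limma adjusted p = 0.0351) and over ATRA (0.96, 0.0156) missed the threshold. Without ATRA library 8 the latter passed it (1.21, limma adjusted p = 0.00584), and the former did so with edgeR (1.02, 0.00741).

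ITGAX, the α chain of CD11c/CD18, was read from a short protein-coding transcript (ENST00000562918, hg38 chr16:31355174-31358455, 663 of 1849 reads) and a retained-intron transcript (ENST00000571644, chr16:31359937-31382932, 1172 reads). The former had 593 countable bases and the latter 717, all of them intronic to the canonical form. The protein-coding form had 5.51, 8.19 and 6.46 normalised reads in untreated cells, 34.6, 31.2 and 34.9 with DAC, 51.7, 84.7 and 86.6 with ATRA, and 106, 97.9 and 106 with DAC+ATRA. The groups followed each other without overlap, in the order untreated, DAC, ATRA, DAC+ATRA. Its log2 fold change was 2.17 ± 0.23 (limma adjusted p = 7.03e-08), 3.26 (7.22e-10) and 3.77 (1.15e-11), respectively. The combination exceeded DAC by 1.60 (2.37e-05), while its excess over ATRA was 0.51 (0.0746). The retained-intron form, over other bases of the gene, went from 11, 20.0 and 24.0 to 59.5, 55.5 and 55.8 with DAC, 109, 109 and 145 with ATRA, and 203, 168 and 200.2 with both. Its log2 fold changes were 1.65 ± 0.21 (limma adjusted p = 5.25e-07), 2.71 (3.73e-10) and 3.37 (8.77e-13).

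For ITGB2, the common β chain, the call depended on the transcript. The retained-intron transcript ENST00000498666 (hg38 chr21:44885953-44920960, minus strand, 1430 countable bases) carried 4030 of 4487 ITGB2 reads. It stood at 142, 102 and 91.4 normalised reads in untreated cells, 257, 311 and 338 with DAC, 438, 436 and 384 with ATRA and 480.1, 508 and 494 with DAC+ATRA. These groups did not overlap. In the fit over transcripts of any biotype it rose by 1.44 ± 0.14 (limma adjusted p = 7.41e-09) with DAC, 1.92 (1.64e-10) with ATRA and 2.16 (2.75e-12) with both, and the combination exceeded DAC (0.72, 0.000848) but not, by the test, ATRA (0.24, 0.2). The protein-coding ENST00000521995, with 176 countable bases and 286 reads, had 26.7, 20.9 and 12.9 normalised reads in untreated cells and 19.0, 16.8 and 21.0 with the combination. Its groups overlapped in all comparisons, and none passed (DAC 0.36 ± 0.32, limma adjusted p = 0.363; ATRA 0.40, 0.484; both −0.04, 0.931). Summed over all its transcripts, ITGB2 was higher with both agents by 2.05 (limma adjusted p = 4.86e-11).

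One more ITGB2 transcript, ENST00000517819, rose with DAC by 2.42 ± 0.50 (limma adjusted p = 0.000423) and with DAC+ATRA by 3.22 (1.41e-05), but not by the test with ATRA (0.40, 0.685). It rested on 80 reads and 83 countable bases, each of which lies inside exons of the antisense gene ITGB2-AS1. The normalised read counts were 1.84, 0.91 and 0 in untreated cells, 8.65, 6.82 and 9.96 with DAC, 0, 3.64 and 1.66 with ATRA, and 17.2, 18.9 and 11.1 with both. ITGB2-AS1 itself (ENST00000441379, a non-coding RNA) stood at 261, 214 and 267 in untreated cells, 2416, 2369 and 2324 with DAC, 794, 838 and 684 with ATRA, and 2502, 2612 and 2323 with DAC+ATRA. It rose by 3.26 ± 0.11 (limma adjusted p = 3.69e-18), 1.64 (1.61e-11) and 3.33 (1.52e-18). The strand setting of the counting is not given in the sources used here, so the values of ENST00000517819 and of ITGB2-AS1 cannot be told apart and those of ENST00000517819 are uncertain.

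**Figure D4:**
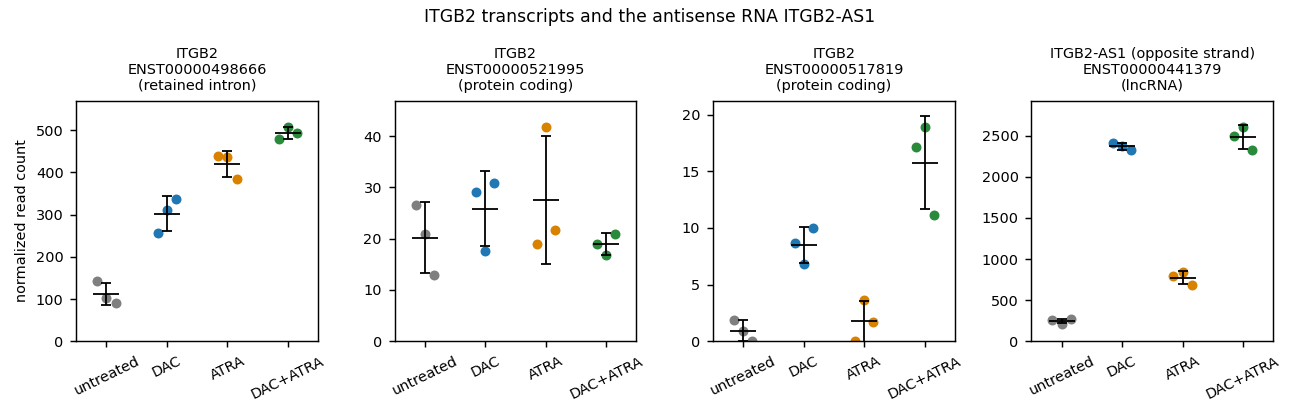
Normalised read count per library of the 3 ITGB2 transcripts that passed the filter and of the antisense gene ITGB2-AS1, by treatment group, on linear axes from 0, with the mean as a line and the SD as bars (n = 3). The retained-intron transcript is higher in every treated library, ENST00000521995 overlaps between all groups, and ENST00000517819 and ITGB2-AS1 are highest in the groups with DAC.

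Of the α4 integrins, ITGA4 had the highest count of all members in untreated cells, and it was lower with the combination. Its transcript ENST00000397033 (hg38 chr2:181457386-181538940, plus strand, 28 exons) had 1593, 1494 and 1524 normalised reads in untreated cells and 1778, 1782 and 1446 with DAC. ATRA gave 1469.9, 1236 and 1203, and the combination gave 966, 923 and 973. The combination lay below all other libraries, ATRA lay below untreated cells by a narrow gap, and only DAC overlapped with the untreated group. The log2 fold change was 0.11 ± 0.11 (limma adjusted p = 0.387) with DAC, −0.24 (0.14) with ATRA and −0.69 (1.12e-05) with both. The combination was lower than DAC by −0.80 (9.77e-06) and lower than ATRA by −0.44 (0.00159). The latter rested on ATRA library 7, without which it was −0.35 (0.0116). A shorter protein-coding form, ENST00000339307 (chr2:181457207-181476218), had 18.4, 21.8 and 17.5 normalised reads in untreated cells and 2.71, 3.16 and 4.94 with both agents, a log2 fold change of −2.16 (3.26e-05). CERKL lies antisense to part of the ITGA4 exons and stood at 0 to 6.37 normalised reads.

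ITGB1, the most widely used β chain, and ITGB7, the partner of α4 in gut homing, had no transcript that passed the filter. Summed over its transcripts, ITGB1 stood at 3.68, 7.28 and 10.2 normalised reads in untreated cells and at 6.33, 8.42 and 8.65 with the combination, with overlap between these groups. ITGB7 was at 0 in the 3 untreated libraries, at 3.24, 0.974 and 2.99 with DAC, at 2.11, 3.64 and 5.83 with ATRA, and at 19.9, 17.9 and 12.4 with DAC+ATRA. All treated libraries thus held ITGB7 reads and no untreated library did. For its retained-intron transcript ENST00000589179, 26 reads with the combination compared with 0 in the untreated group. Set against 3 reads over that group, this was 9.89-fold higher, with a lower 95% counting limit of 7.49. Both genes could be tested only as sums over transcripts of any biotype, an alternative chosen after seeing the data, in which ITGB1 was not called with DAC (limma adjusted p = 0.467) or ATRA (1). ITGB7 was at 0 in untreated cells and passed the filter there through the DAC+ATRA libraries only. Its fitted changes are set by the pseudocount and are not given, and the following counts, which hold it, are a description. Of 9 members that passed as sums, 7 rose with DAC and 0 fell (28.2% and 12.4% of all 13528 symbols), 6 and 0 with ATRA (6.68% and 2.93%), and 7 and 1 with both (31.1% and 17.4%), while 5 and 1 differed between the combination and DAC (6.68% and 5.58%).

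Of the αv integrins, ITGAV, the α chain, stood at 0 to 1.08 normalised reads in all libraries. ITGB3 (CD61), known from platelets and megakaryocytes as the partner of ITGA2B, was all but absent from cells without DAC. Its transcript ENST00000559488 (hg38 chr17:47253827-47313743, plus strand, 15 exons) had 0, 0.91 and 0 normalised reads in untreated cells and 1.06, 0 and 0 with ATRA, against 19.5, 34.1 and 41.8 with DAC and 36.2, 33.7 and 23.5 with DAC+ATRA. The groups with DAC did not overlap with those without it. In reads, 95 with DAC compared with 1 in untreated cells, a ratio of 105 (95% counting interval 18.4 to 4194), and 91 with the combination gave 104 (18.2 to 4146). The combination and DAC alone differed by a ratio of 0.99 (0.73 to 1.33). The log2 fold change was 4.66 ± 0.42 (limma adjusted p = 9.58e-09) with DAC, 0.04 (0.99) with ATRA and 4.67 (6.84e-09) with both. The size of both ITGB3 changes with DAC depends on the pseudocount and was over 1.5 times larger on the log2 scale with 0.1, with the same calls. Among the megakaryocyte markers, the platelet glycoprotein gene GP9 was also higher with DAC, with means of 2.1 in untreated cells and 319 with DAC, while PF4 and GP1BA had means of at most 1.0 in each group. Of the 4 markers, which also hold PPBP, 2 had a mean of at least 10 with DAC and 0 in untreated cells. Their sum ran from 247.5 to 376 with DAC and from 151 to 179 with DAC+ATRA, whereas ITGB3 overlapped between these 2 groups.

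ITGB5, the other β chain of αv, rose from a few reads with either agent. Its transcript ENST00000296181 (hg38 chr3:124761948-124887365, minus strand, 15 exons) had 1.84, 2.73 and 5.54 normalised reads in untreated cells and 153, 191 and 178 with DAC. ATRA gave 112, 105 and 126, and DAC+ATRA gave 288, 309 and 361. The groups did not overlap, and the lowest treated library was far above the highest untreated one. The 11 reads of the untreated group compared with 517, 372 and 905, giving ratios of 52.0 (28.8 to 105) with DAC, 34.1 (18.8 to 68.8) with ATRA and 93.9 (52.2 to 189) with both. The log2 fold change was 5.41 ± 0.23 (limma adjusted p = 6.53e-14), 4.80 (2.39e-12) and 6.28 (3.42e-15), respectively. The combination exceeded ATRA by 1.48 (1.84e-05). Its excess over DAC, 0.87 (0.00999), was at the threshold and lost the call in 9 of the 12 fits that left out 1 library. Those were without untreated library 2, DAC libraries 4, 5 and 6, ATRA libraries 7 and 8, and DAC+ATRA libraries 10, 11 and 12, with adjusted p from 0.0103 to 0.0597. A short second transcript, ENST00000460797 (chr3:124762948-124770182), was at 0 in untreated cells and at 8.65, 13.6 and 20.9 with DAC, 14.8, 17.3 and 19.1 with ATRA and 32.5, 29.5 and 14.8 with both. Set against 3 reads over the untreated group, it was 15.9-fold, 18.8-fold and 28.9-fold higher, with lower 95% counting limits of 12.3, 14.8 and 22.9.

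The sequences before the starts of ITGAM and ITGB5, 2 members that rose with either agent, are given from RefSeq (GRCh38.p14) because they differ in CG dinucleotides, the sites that DNA methyltransferases act on. Capitals mark CG, and bases in annotated exons were left out. The ITGAM sequence is chr16:31259725-31259966 (plus strand, 250 to 9 bases before the start) and the ITGB5 sequence is chr3:124887366-124887599 (minus strand, 234 to 1 bases before the start).
ITGAM: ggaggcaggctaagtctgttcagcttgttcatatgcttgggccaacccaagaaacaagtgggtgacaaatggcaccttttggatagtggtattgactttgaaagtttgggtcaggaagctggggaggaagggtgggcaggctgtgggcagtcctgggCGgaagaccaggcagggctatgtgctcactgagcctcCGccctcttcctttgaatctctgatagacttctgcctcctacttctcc
ITGB5: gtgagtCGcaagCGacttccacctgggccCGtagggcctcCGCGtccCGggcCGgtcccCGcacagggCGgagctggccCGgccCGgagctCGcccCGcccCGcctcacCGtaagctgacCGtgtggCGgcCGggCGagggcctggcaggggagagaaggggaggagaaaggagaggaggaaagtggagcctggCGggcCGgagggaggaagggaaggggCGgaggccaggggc
In the 250 bases before the canonical start ITGAM held 2 CG dinucleotides and ITGB5 23, where the median of 35116 promoters was 11 (quartiles 3 and 23). ITGA4, which was not called with DAC, held 25. The letters GAGGAA, the core of PU.1 binding sites, were found on either strand 1 time in the ITGAM window and 2 times in that of ITGB5, as in 23.6% of all promoters at least once. AGGTCA and AGTTCA, half-site letters of retinoic acid receptor elements, were in neither window (12.1% and 8.8% of all promoters). The window before another ITGB5 start (chr3:124901419-124901668) held AGTTCA 1 time. These are matches of letters only, and methylation was not analysed here.

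The combination was then compared with the single agents. With DAC+ATRA against DAC, 3 of the 9 protein-coding transcripts were higher and 2 lower, where 6.08% and 5.26% of all tested transcripts were. Against ATRA, 4 were higher and 2 lower, with 25.9% and 8.88% of all. Over transcripts of any biotype, 6 of 17 were higher and 2 lower than with DAC (5.18% and 3.59% of all), and 5 and 2 against ATRA (19.1% and 10.2%). The interaction asks whether the log2 changes of the single agents add up to that of the combination, and is negative where the combination stays below the product of the single folds. It was called for 0 transcripts as positive and for 3 as negative, against 0.787% and 1.67% of all. These were ITGB5 (−3.93 ± 0.32, limma adjusted p = 3.5e-07), ITGAX ENST00000562918 (−1.67 ± 0.32, 0.00256) and ITGAM (−0.63 ± 0.14, 0.00819). ITGB5 and ITGAX ENST00000562918 passed the filter through the treated groups only and rest on few untreated reads (11 for ITGB5), which limits their values. The ITGB5 interaction ranked 5 from the bottom among 9016. ITGAL (−1.74 ± 0.44, 0.0224) and ITGA4 (−0.56 ± 0.15, 0.0318) missed the threshold. The ITGAX call was lost without ATRA library 8 (0.0105), DAC+ATRA library 10 (0.0105) or 11 (0.0106). The ITGAM call was lost in 11 of 12 such fits, with adjusted p from 0.0117 to 0.0373. ITGA4 passed without ATRA library 9 (−0.61, limma adjusted p = 0.00661). In the fit over transcripts of any biotype, 0 were called as positive and 4 as negative (0.527% and 0.986% of all), where the interaction of ITGB2 ENST00000498666 was −1.20 ± 0.20 (limma adjusted p = 0.000617), and the short ITGB5 transcript was also called, with a value that is set by the pseudocount since it was at 0 in untreated cells. The more-read ITGAX transcript ENST00000571644 was not called (−0.99, limma adjusted p = 0.0766).

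On the scale of normalised reads, a comparison added after seeing the data, the picture differed by member. For ITGAM, adding the increases of the single agents to the untreated level gave 1656, the product of folds gave 4244, and the observed mean was 2725, which is 1069 ± 77.6 (SE) above the sum. For ITGB5 the sum was 285 and the observed mean 319.6, a difference of 34.6 ± 25.0, whereas the product was 5899. The observed level thus lay between the sum and the product, close to the former. ITGAX ENST00000562918 (sum 101, observed 103, difference 2.2 ± 11.7, product 371) and ITGAL (sum 48.0, observed 49.1, difference 1.1 ± 7.6, product 213) were within 1 SE of the sum, and ITGAX ENST00000571644 was above it (sum 159.5, observed 191, difference 31.2 ± 16.8). ITGB2 ENST00000498666 was below it (sum 609.6, observed 494, difference −115 ± 34.3), as was ITGA4 (sum 1435, observed 954, difference −481 ± 143). These errors rest on 3 libraries per group, and no test was run on this scale.

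**Figure D5:**
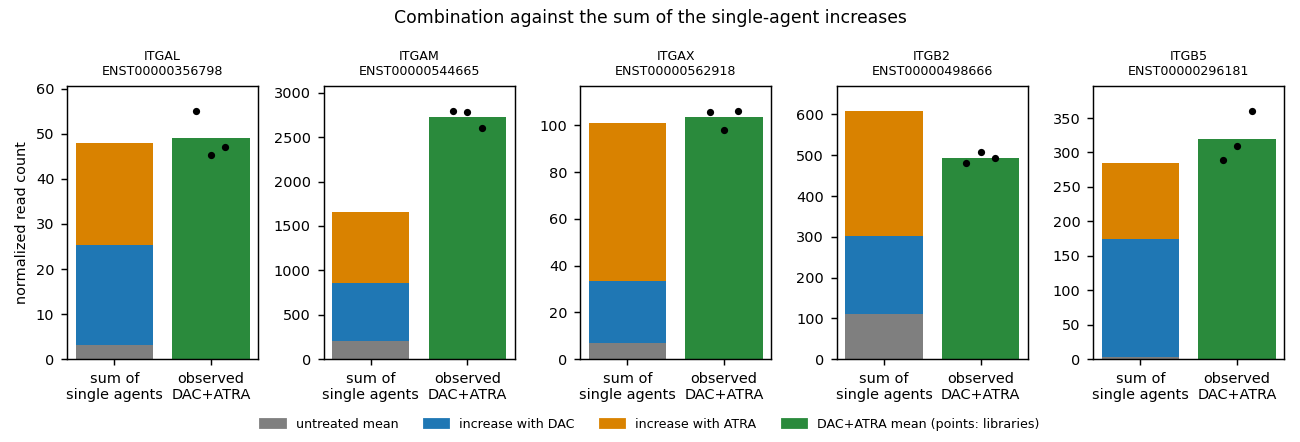
Mean normalised read count with DAC+ATRA (green bar, points for the 3 libraries) of 5 member transcripts beside a bar that stacks the untreated mean and the increases with DAC and with ATRA. ITGAL and ITGAX lie at about the height of the stack, ITGB5 lies somewhat above it, ITGAM lies well above it (2725 against 1656), and ITGB2 ENST00000498666 lies below it (494 against 609.6).

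Levels can be compared between members only per countable base. Among the 5 members with countable bases in a tested canonical transcript, per kilobase of these bases, the mean normalised read count in untreated cells was 376 for ITGA4, 69.3 for ITGAM, 8.78 for ITGAL, 2.35 for ITGB5 and 0.08 for ITGB3. With DAC the order of these 5 was ITGA4 (409), ITGAM (294), ITGB5 (121), ITGAL (72.6) and ITGB3 (8.76). With ATRA, ITGAM (344) and ITGA4 (319) were close, followed by ITGB5 (79.5), ITGAL (74.1) and ITGB3 (0.10). With DAC+ATRA, ITGAM reached 935 and ITGA4 was at 234, followed by ITGB5 (223), ITGAL (141) and ITGB3 (8.57). Neighbours such as ITGB5 and ITGAL with ATRA, and ITGA4 and ITGB5 with DAC+ATRA, differed by little, and no test between genes was run. The retained-intron transcripts of the remaining pair, which may not follow the full-length form, stood in untreated, DAC, ATRA and DAC+ATRA cells at 78.1, 211, 293 and 346 per kilobase for ITGB2 ENST00000498666 and at 25.6, 79.4, 169 and 266 for ITGAX ENST00000571644. Both exceeded ITGA4 with DAC+ATRA. The protein-coding forms of these genes lay below ITGA4 there, with 174 for ITGAX ENST00000562918 and 108 and 190 for ITGB2 ENST00000521995 and ENST00000517819.

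Other genes of the pathway were counted by role. Of those tested, ITGA2, ITGA5, ITGA6, ITGAD, ITGAE, ITGB8, THBS1, TLN2 and LIMS1, were below 10 normalised reads in each untreated library and passed the filter through treated groups only, so these counts are a description as well. Of 16 other integrin subunits, 10 were tested, of which 7 rose with DAC and 0 fell (30.6% and 8.70% of all tested transcripts), 3 rose and 1 fell with ATRA (6.47% and 2.67%), and 8 rose and 0 fell with the combination (32.6% and 14.2%). ITGB8, a further αv partner, was at 0 in untreated cells and had a mean of 83.1 with DAC, and ITGA8 was called in opposite directions with DAC (2.24) and ATRA (−1.64 ± 0.33, limma adjusted p = 0.00117). The fibronectin receptor chain ITGA5 had means of 4.27 normalised reads in untreated cells, 3.18 with DAC, 28.9 with ATRA and 7.64 with both, and was called against untreated cells with ATRA. The collagen receptor chain ITGA2 had means of 1.84, 95.2, 12.1 and 70.3 and was called with each treatment. Of 20 integrin ligands, 6 were tested, of which 3, 2 and 3 rose with DAC, ATRA and both, and 0 fell, to be read against 30.6%, 6.47% and 32.6% of all that rose. Thrombospondin (THBS1), a ligand of the αv integrins, had means of 0.31 in untreated cells, 15.4 with DAC, 9.68 with ATRA and 235 with both, and ICAM1, the ligand of LFA-1 and Mac-1, had means of 453, 875, 1236 and 2506. ICAM1 rose by 0.95 with DAC, 1.44 with ATRA and 2.46 with both (limma adjusted p = 3.31e-07, 3.33e-09 and 1e-13). Of 24 activators and adaptors, 15 were tested, of which 8, 2 and 8 rose and 0 fell, against the same 30.6%, 6.47% and 32.6%. Talin (TLN1), which links β chains to actin, rose by 0.47 (limma adjusted p = 0.000489) with DAC, and APBB1IP, which brings talin to RAP1, rose by 0.78 with ATRA and 0.66 with both. Of 11 downstream kinases and effectors, 2 were tested and both, LYN (0.62) and RAC2 (0.53), rose with DAC, where 30.6% of all did, while 0 were called with ATRA.

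As a description over the 12 libraries, the genes whose log2 levels followed a member most closely were looked up among 7620 symbols by Pearson correlation. Such values are set by the 4 groups that the libraries share. ITGAM was most like KLF18 (0.995), S100A9 (0.993), which encodes a calcium-binding protein of maturing granulocytes and monocytes, and SLC2A12 (0.992). ITGA4 was most like the adhesion receptor CD44 (0.980), LIG3 (0.939) and NPTXR (0.931). ITGB3 was most like ALOX12 (0.993), which encodes the 12-lipoxygenase of platelets, NKAPL (0.993) and PKP3 (0.992). ITGB5 was most like COL4A2 (0.982), a chain of basement membrane collagen, ADAM19 (0.980) and FAM117A (0.980).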

How the data were processed

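Total RNA of U937 cells was depleted of ribosomal RNA and sequenced as stranded, paired-end libraries. The authors aligned reads to hg38 with STAR, counted them per transcript with HTSeq and divided them by DESeq2 size factors. The deposited values are this signal of normalised reads. Versions, counting mode and strand setting are not given in the sources used here. Division by 1 step per library gave whole reads (100% of values within 0.01 read), with 8042435 to 10683593 reads per library. Counting intervals (95%) and floors of 3 reads cover counting error only.

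The values were log2 transformed (pseudocount 1) and tested in 1 fit of 12 libraries with limma 3.58.1 (trend and robust moderation; R 4.3.3) and Benjamini-Hochberg adjustment within each of 6 comparisons. Transcripts needed 10 normalised reads in 3 libraries. With this filter 9016 protein-coding transcripts (19373 of any biotype) were tested. An exact permutation test of 3 against 3 libraries cannot go below p = 0.1 (two-sided). Biotypes and countable bases were taken from GENCODE 44 (23014 transcripts not matched by identifier), which may differ from the authors' annotation, and promoters from RefSeq. Columns named groups without replicate numbers, and 0 columns of values were left unused.

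Alternatives comprised edgeR 4.0.16 (quasi-likelihood test) and DESeq2 1.42.0 on recovered reads, other scalings, filters, pseudocounts and thresholds, and leaving out each library. The edgeR test without DAC library 6, the DESeq2 test with the authors' size factors, sums over any biotype and the unlogged scale were chosen after seeing the data. On simulated data for DAC against untreated cells (9016 transcripts), limma found 90% of transcripts changed by 2 on the log2 scale and 60% of those changed by 1.

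The members and gene lists were chosen with earlier results of these data known. All 10 members are named. From each list, the highest and the lowest called log2 fold change per comparison could be named. The genes of similar pattern are the 3 with the highest correlation, for 4 members.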

Additional observations from a re-analysis of the deposited data

Results flagged for a closer look

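The interaction of DAC and ATRA, a test of whether the effect of DAC differed in cells with and without ATRA, was called for 3 member transcripts in limma with Benjamini-Hochberg adjustment. The interaction was −3.93 (adjusted p = 3.5e-07) for ITGB5, −1.67 (0.00256) for ITGAX ENST00000562918 and −0.63 (0.00819) for ITGAM on the log2 scale, so that the combination stayed below the product of the single folds. All 3 are negative on the log scale and positive as a difference of normalised reads from the sum of the single-agent increases. ITGB5 and ITGAX lie within 2 SE of that sum. These 2 passed the filter through the treated groups only, and ITGB5 rests on 11 untreated reads. The more-read ITGAX transcript ENST00000571644 was not called (−0.99, limma adjusted p = 0.0766). The ITGAM call was lost in 11 of 12 fits that left out 1 library (limma adjusted p from 0.0117 to 0.0373), and that of ITGAX without ATRA library 8 (0.0105), DAC+ATRA library 10 (0.0105) or 11 (0.0106).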

How the results depend on the processing

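Leading transcripts called numbered 5 with DAC, 4 with ATRA, 6 with the combination, 4 for the combination against DAC, 4 against ATRA and 3 for the interaction. With at least 10 normalised reads required in every library, 3 leading transcripts were left to test and the counts were 1, 1, 2, 2, 2 and 1. At a threshold of 0.05 the interaction count was 5. Leaving out 1 library gave 5 to 5, 4 to 4, 6 to 6, 3 to 4, 3 to 5 and 1 to 4 calls, where 1 arose without ATRA library 8 or DAC+ATRA library 10 or 11. The other 76 of 83 counts under the remaining settings stayed within 1.5 times the main count.

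Summed over transcripts of any biotype, ITGB2 reversed to 2.05 with the combination and 0.66 against DAC, because the sum is led by the retained-intron transcript. On the unlogged scale the interaction reversed to 1069 (ITGAM), 34.6 (ITGB5) and 2.2 (ITGAX) normalised reads. The ITGAM interaction was not called in the any-biotype fit (limma adjusted p = 0.012) or without the filter (0.0238), nor that of ITGAX with edgeR without DAC library 6 (0.0139). ITGB5 against DAC was not called with a pseudocount of 0.1 (0.0391), library size scaling (0.017) or protein-coding size factors (0.0114). The cause was not tested. Single-transcript values kept direction and call in 535 of 564 alternatives and in 478 of 504 fits without a library.

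No paired analysis was possible because the columns carry no replicate number. Few reads limit ITGAL, ITGB3 and ITGB7, and shared exons limit ITGAL, ITGAX, ITGB2, ITGB1, ITGB7 and ITGAV.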
